A study of Mus musculus with 6 samples.

Results

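The 78 genes described here carry the names of mitochondrial ribosomal proteins. They were taken from a table of 27458 genes as every gene whose name begins with Mrpl or Mrps and a digit. The 5 pseudogenes named in the same way with -ps were left out. By name, 49 belong to the large subunit (Mrpl) and 29 to the small subunit (Mrps). All 78 had a mean of at least 1 FPKM (fragments scaled by transcript length and library size) over the 6 libraries and were tested. Their mean level ran from 1.09 FPKM for Mrps35 to 29.8 FPKM for Mrps21.

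RNA was sequenced from primary mouse bone marrow macrophages, cells grown from marrow with macrophage colony-stimulating factor (M-CSF), in a study of RKIP in macrophage differentiation. RKIP (Raf kinase inhibitor protein, encoded by Pebp1) is known as a binder of Raf kinases. The KO group held 3 libraries of the genotype RKIP-/-, with M-CSF, and the WT group held 3 libraries of the genotype RKIP+/+, with M-CSF. The labels used here give neither the age of the mice nor the kind of deletion, and they do not say whether the libraries came from separate animals. The p-values are therefore relative to how much these libraries vary, and that variation may be technical.

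The mitochondrial ribosome translates the few messenger RNAs of the mitochondrial genome, which encode core subunits of the respiratory chain. Its ribosomal RNAs come from the mitochondrial genome, whereas all its proteins are encoded in the nucleus, made in the cytosol and imported. Many of its proteins have bacterial counterparts and others are found only in mitochondria. The large subunit holds the site where peptide bonds form, and the small subunit holds the site where codons are read.

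Pebp1 was at 0 FPKM in each of the 3 KO libraries, against 39.2, 33.2 and 39.0 FPKM in WT libraries 1 to 3. Total estimated counts ran from 63607276 to 70059042 in KO libraries and from 53188659 to 55255365 in WT libraries, so KO libraries were deeper. Of the 8 macrophage markers 2 rose, 4 fell and 2 did not pass, and with the length and GC offset described below 2 rose and 1 fell. Their sum of 18460 to 18720 FPKM in KO and 20450 to 21950 FPKM in WT was mostly Lyz2, a lysozyme, at a mean of 16650 FPKM in KO and 19290 FPKM in WT. Adgre1, which encodes the macrophage surface protein F4/80, rose by 0.35 on the log2 scale and the M-CSF receptor gene Csf1r by 0.30. All 8 tested neutrophil markers were lower in KO, with a sum of 7.63 to 8.16 FPKM in KO against 77.1 to 163 FPKM in WT. Of the 12 cell cycle genes, 10 were lower in KO, with a sum of 113 to 127.5 FPKM in KO against 143 to 148 FPKM in WT. Of the 4 tested monocyte markers 3 fell and Ccr2, a chemokine receptor, rose by 0.73 on the log2 scale, with a sum of 23.7 to 26.2 FPKM in KO against 33.5 to 35.5 FPKM in WT. Of the 5 tested stromal markers 2 fell, and 3 with the offset, with a sum of 729.9 to 843.6 FPKM in KO against 756.6 to 848 FPKM in WT. Among them Col1a1 averaged 460 FPKM in KO and 486 FPKM in WT, above Adgre1 at 382 and 288 FPKM. The 1 tested mast cell marker did not pass. Lists of B cell, T and NK cell, dendritic cell and erythroid markers had no tested gene, and no marker listed in the table was at 0 in every library. Some of these values, such as the neutrophil, monocyte and cell cycle sums, differed with the genotype as the genes below did. The stromal sums overlapped between the groups. The part of any of these values in the results was not tested. In bulk RNA, fewer cells of a type and less RNA per cell cannot be told apart.

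The mitochondrial ribosomal protein genes had more falls than rises in KO, and the differences were small. Coordinates are those of the deposited table, which match GRCm38 gene models for 69 of the 78. Of the 78, 31 fell (39.7%) and 0 rose at an adjusted p under 0.05 by edgeR's quasi-likelihood test. Among all 11636 tested genes, 19.4% were called lower and 20.3% higher. The median log2 fold change (KO over WT) was -0.20 over the 78 genes and -0.01 over all tested genes. A negative log2 fold change was found for 73 of the 78, against 51.2% of all tested genes, but with the length and GC offset described below it was found for 51 of the 78 (65.4%), against 50.6%. In 46 of the 78 every KO library lay below every WT library in CPM (counts scaled by library size), and these 46 included all 31 that fell. Over all tested genes that order was found for 25.4%.

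**Figure D1:**
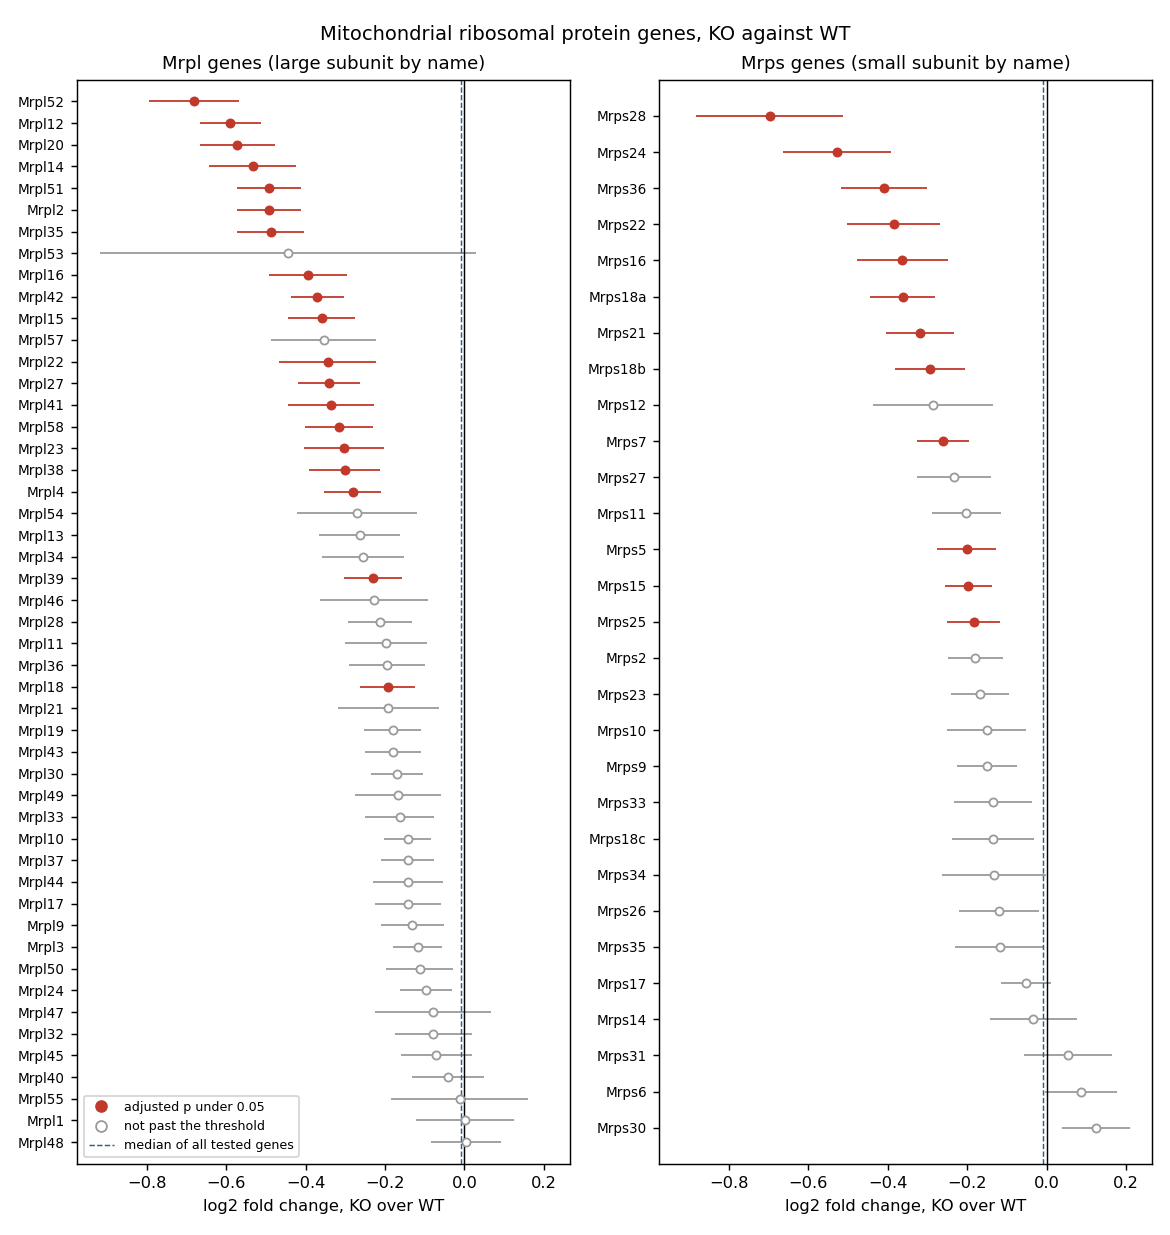
Log2 fold change (KO over WT, horizontal axis) of each of the 49 Mrpl and 29 Mrps genes, with its approximate standard error as a line. Filled points passed an adjusted p of 0.05 in edgeR, and the dashed line is the median of all tested genes at -0.01. Nearly every point lies left of that line, with Mrps28 and Mrpl52 farthest to the left.

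The counts depended on transcript length. In the tested fit, 13 of the 26 members with the shortest transcripts fell (488 to 1138 bp), against 9 of the 26 of middle length and 9 of the 26 longest (2799 to 7300 bp). A second edgeR fit gave each library an offset for its trend on transcript length and GC content. In it 20 of the 78 fell (25.6%) and 1 rose, against 15.9% lower and 14.9% higher over all tested genes. The median log2 fold change of the members was -0.11 in that fit. None of the 26 shortest fell and 1 rose, and their median log2 fold change was 0.07, whereas 6 of the middle 26 and 14 of the longest 26 fell. Across the 78 genes the log2 fold change had a Pearson correlation with the logarithm of transcript length of 0.345 in the first fit and -0.634 with the offset. These genes share their libraries and are not independent. The offset thus turned the relation round within the members. Leaving out 1 library took the 20 to between 13 and 15, with 13 without KO library 3, WT library 1 or WT library 2.

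**Figure D2:**
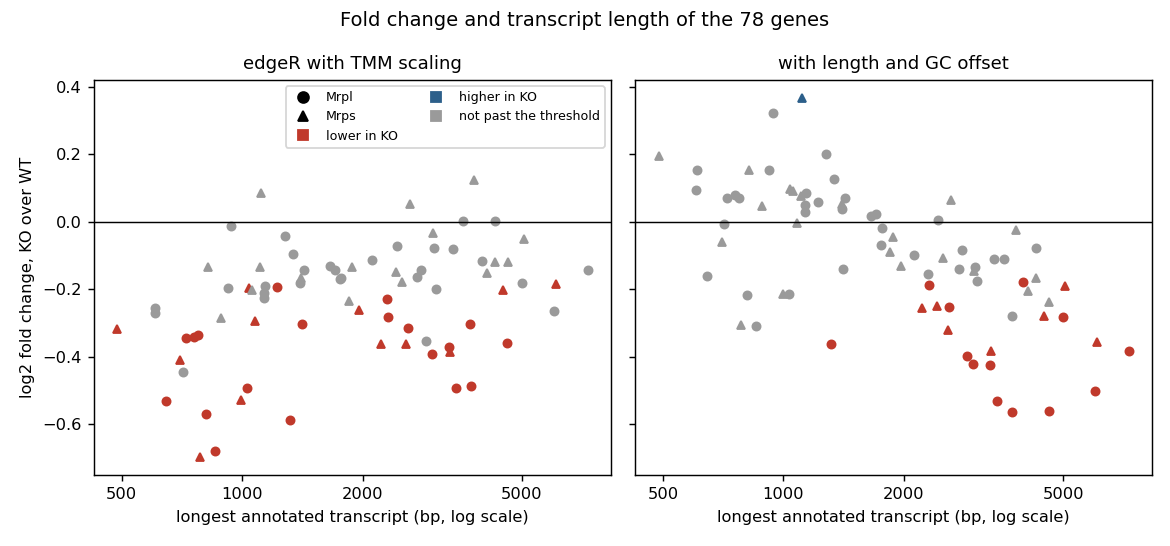
Log2 fold change (KO over WT, vertical axis) against the length of the longest annotated transcript (log axis) for the 78 genes, in the fit without (left) and with (right) the length and GC offset. Circles are Mrpl and triangles Mrps genes. Short transcripts move up to around 0 with the offset, while the long ones stay below 0.

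Both fits called 13 members lower, by name 8 of the large and 5 of the small subunit. Over all tested genes 19.4% fell in the first fit and 15.9% with the offset. The share of all tested genes lower in both fits was not computed. The large-subunit genes were Mrpl4, Mrpl12, Mrpl15, Mrpl16, Mrpl35, Mrpl42, Mrpl51 and Mrpl58. The small-subunit genes were Mrps5, Mrps16, Mrps18a, Mrps22 and Mrps25. Of these 13, 12 have transcripts over 2000 bp, and their median length was 3277 bp, against 925.5 bp for the 18 called only without the offset. A further 7 were called lower only with the offset, among them Mrpl13 with a corrected log2 fold change of -0.50 (adjusted p 0.00133, edgeR).

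Promoter windows of members that fell in both fits are shown here as examples with and without the motifs searched. Sequences are from RefSeq (GRCm38.p6), from 150 bases before to 30 bases after the annotated start, 5′ to 3′ on the gene's strand, with the searched motifs in capitals. The window of Mrpl12 (chr11:120484487-120484666, plus strand) holds the core of the motif of NRF1, a transcription factor known for controlling nuclear genes of mitochondria. That of Mrps18a (chr17:46110854-46111033, plus strand) holds an ETS motif, bound by GABP among others, and a YY1 motif just after the start. The window of Mrps22 (chr9:98601650-98601829, minus strand) holds an ETS motif and, farther upstream, a GC box. The window of Mrpl16 (chr19:11770265-11770444, plus strand) holds none of the searched motifs.
Mrpl12: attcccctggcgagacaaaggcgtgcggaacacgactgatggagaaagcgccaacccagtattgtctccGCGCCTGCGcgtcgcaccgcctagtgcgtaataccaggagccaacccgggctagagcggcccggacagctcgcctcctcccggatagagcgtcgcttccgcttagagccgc
Mrps18a: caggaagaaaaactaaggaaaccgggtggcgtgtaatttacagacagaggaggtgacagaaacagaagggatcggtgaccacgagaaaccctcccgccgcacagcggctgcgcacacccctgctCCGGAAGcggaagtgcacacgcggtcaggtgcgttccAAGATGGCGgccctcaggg
Mrps22: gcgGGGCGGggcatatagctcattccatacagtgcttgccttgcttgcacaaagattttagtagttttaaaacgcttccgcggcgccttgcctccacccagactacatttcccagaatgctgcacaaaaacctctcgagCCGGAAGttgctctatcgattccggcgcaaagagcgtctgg
Mrpl16: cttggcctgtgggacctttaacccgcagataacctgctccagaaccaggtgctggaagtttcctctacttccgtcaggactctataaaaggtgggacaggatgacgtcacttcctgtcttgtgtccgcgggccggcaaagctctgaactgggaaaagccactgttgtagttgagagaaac

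RefSeq promoters, from 250 bases before to 50 after the start, were matched for 69 of the 78 members and for 8398 tested coding genes. Each motif was searched on both strands. A gene was counted if any of its listed promoters held the motif, and the number of promoters per gene was not compared between members and other genes. The ETS motif CCGGAAG was present in 26 of the 69 (37.7%), against 21.9% of the tested coding genes. The YY1 motif AAGATGGCG was present in 8 of 69 (11.6%), against 3.99%. The NRF1 core GCGCNTGCG was present in 18 of 69 (26.1%), against 16.3%. A form of the NRF1 motif that is 1 base longer was searched first, and the core was taken after its counts had been seen. The longer form was in 13 of 69 (18.8%), against 12.4%. The GC box GGGCGG was less frequent among members, in 34 of 69 (49.3%) against 70.4%, and so was the E-box CACGTG, in 5 of 69 (7.25%) against 12.4%. The windows are descriptions of sequence, and no binding was measured. Members with the ETS motif had a median log2 fold change of -0.27 and those without it -0.18, but with the length and GC offset the medians were -0.04 and -0.11, in the other order. With and without the YY1 motif they were -0.30 and -0.18, and with the offset -0.15 and -0.08, in the same order. For the NRF1 core they were -0.18 and -0.20, and with the offset -0.10 and -0.09. For the GC box they were -0.20 and -0.20, and with the offset -0.12 and -0.07. For the E-box they were -0.20 and -0.20, and with the offset -0.08 and -0.09. These differences were not tested.

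Among large-subunit genes, Mrpl52 and Mrpl12 had the largest falls. Mrpl52 (chr14:54426909-54429756, plus strand), a protein found only in mitochondrial ribosomes, was at 5.19, 5.35 and 4.73 FPKM in KO libraries 1 to 3, against 7.49, 7.96 and 8.17 FPKM in WT libraries 1 to 3. The groups did not overlap, and the log2 fold change was -0.68 ± 0.11 (approximate SE, n = 3 libraries per group, adjusted p 0.000702 by edgeR), and with the offset it was -0.31 (adjusted p 0.0599).

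Mrpl12 (chr11:120484613-120489065, plus strand) belongs to the stalk of the large subunit that recruits translation factors, and it is also known to bind the mitochondrial RNA polymerase. It was at 9.24, 9.63 and 8.87 FPKM in KO libraries, against 13.3, 12.7 and 14.2 FPKM in WT libraries. The highest KO library was well below the lowest WT library, at a log2 fold change of -0.59 ± 0.08 (adjusted p 0.000137, edgeR), and -0.36 with the offset (adjusted p 0.00336). It was the shortest gene called in both fits, with a transcript of 1316 bp.

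Mrpl51 and Mrpl35, both with long transcripts, changed little with the offset. Mrpl51 (chr6:125191801-125196269, plus strand), found only in mitochondrial ribosomes, was at 3.75, 3.44 and 3.88 FPKM in KO libraries, against 4.79, 4.89 and 5.32 FPKM in WT libraries, with a log2 fold change of -0.49 ± 0.08 (edgeR adjusted p 0.000598) and -0.53 with the offset. Mrpl35 (chr6:71812997-71823810, minus strand), which has a bacterial counterpart, was at 2.48, 2.39 and 2.51 FPKM in KO libraries, against 3.43, 3.21 and 3.32 FPKM in WT libraries. Its log2 fold change was -0.49 ± 0.08 (edgeR adjusted p 0.000882) and -0.56 with the offset (adjusted p 0.000352). In both genes the KO and WT libraries were apart.

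Mrpl20, Mrpl14 and Mrpl2 fell in the first fit and lost their call with the length and GC offset. Mrpl20 was at 9.996, 8.32 and 8.16 FPKM in KO libraries and at 13.03, 11.97 and 12.97 FPKM in WT libraries. Its log2 fold change was -0.57, and -0.22 with the offset. Mrpl14 had log2 fold changes of -0.53 and -0.16, and Mrpl2, the counterpart of a bacterial protein close to the peptide-bond site, of -0.49 and -0.21, without and with the offset. In each of these 3 genes the groups were apart, and the adjusted p with the offset ran from 0.0589 to 0.247 (edgeR). With an offset on the length implied by the table in place of the annotated one, Mrpl20 was called lower (log2 fold change -0.37, edgeR adjusted p 0.0064), and so was Mrpl52 (-0.35, adjusted p 0.0339), while Mrpl4 and Mrps16 lost their call (adjusted p 0.0764 and 0.0567).

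Mrpl16 was at 3.31, 3.12 and 3.23 FPKM in KO libraries and at 3.96, 4.51 and 3.74 FPKM in WT libraries, with no overlap and a log2 fold change of -0.39 ± 0.10 and -0.42 with the offset (edgeR adjusted p 0.00743 and 0.00599). Mrpl58, a peptidyl-tRNA hydrolase built into the ribosome, was at 3.64, 3.32 and 3.64 FPKM in KO libraries and at 4.13, 4.46 and 4.12 FPKM in WT libraries. It fell by 0.32 on the log2 scale (edgeR adjusted p 0.0123), but without WT library 2 its adjusted p was 0.0532.

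The most abundant large-subunit members, Mrpl10, Mrpl28 and Mrpl18, had smaller differences. Mrpl10 averaged 19.8 ± 0.419 FPKM in KO and 21.1 ± 1.08 FPKM in WT, and the groups overlapped in FPKM. Mrpl28 averaged 17.3 ± 1.87 FPKM in KO and 19.3 ± 0.592 FPKM in WT, also with overlap in FPKM. In CPM every KO library lay below every WT library for both genes. Mrpl18 was called lower at an adjusted p of 0.0456 (edgeR, log2 fold change -0.19), a call that was lost without KO library 1, KO library 3 or any one WT library (adjusted p 0.0686 to 0.151). With the offset all 3 had log2 fold changes just above 0, at 0.02, 0.03 and 0.06. At the low end, Mrpl47 was at 1.53 ± 0.136 FPKM in KO and 1.56 ± 0.273 FPKM in WT, and Mrpl48 at 1.93 ± 0.127 FPKM in KO and 1.85 ± 0.169 FPKM in WT.

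**Figure D3:**
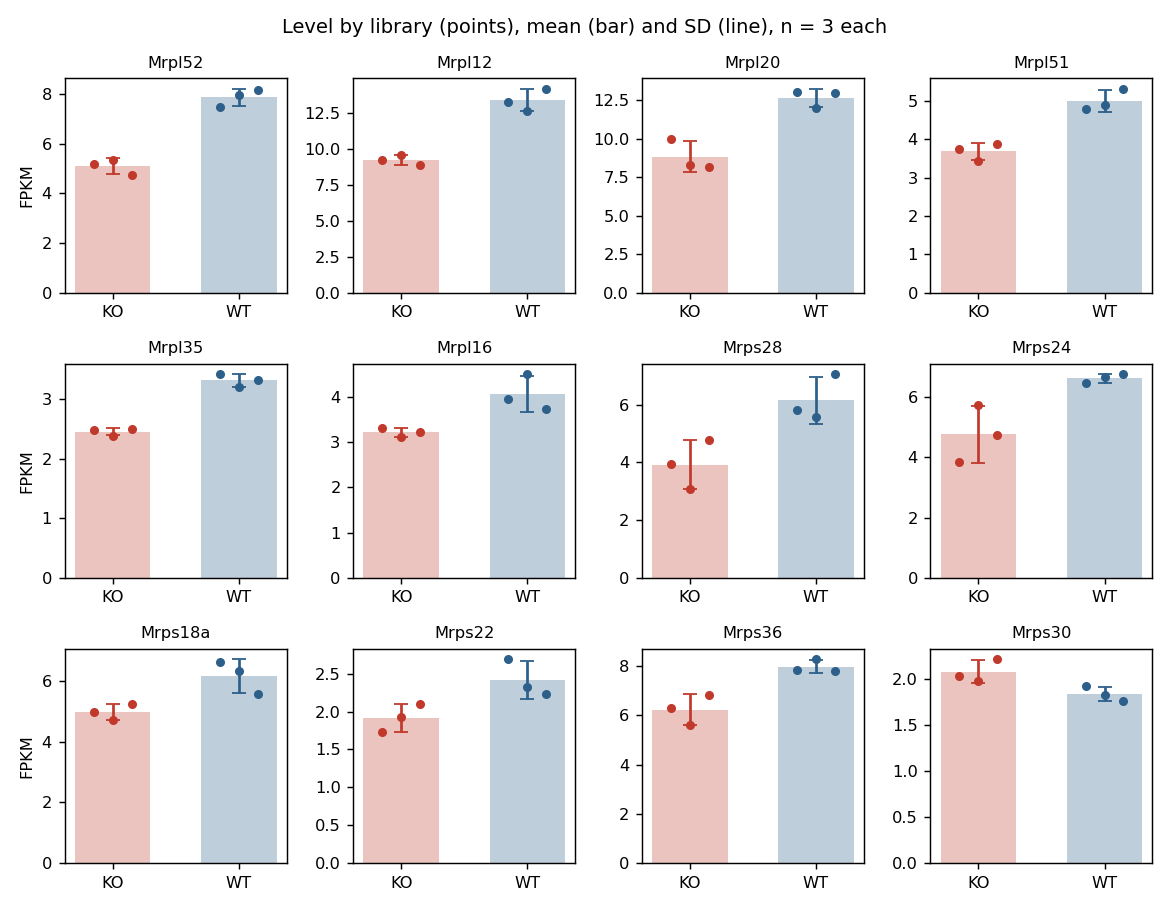
FPKM of 12 members in each library (points), with the mean (bar) and SD (line) of 3 KO and 3 WT libraries. KO lies below WT in 11 of the genes, and Mrps30, which did not pass the test, is the exception.

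Among small-subunit genes Mrps28 and Mrps24 had the largest falls, and both lost their call with the offset. Mrps28 (chr3:8802146-8923918, minus strand) was at 3.94, 3.08 and 4.76 FPKM in KO libraries, against 5.82, 5.56 and 7.07 FPKM in WT libraries. KO library 3 was the highest of its group and still below every WT library. Its log2 fold change was -0.70 ± 0.19 (edgeR adjusted p 0.0109), and -0.31 with the offset (adjusted p 0.232). Mrps24, which has a bacterial counterpart, was at 3.83, 5.73 and 4.73 FPKM in KO libraries, against 6.46, 6.65 and 6.75 FPKM in WT libraries, with log2 fold changes of -0.53 and -0.21.

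Mrps22 and Mrps16 kept their call with the offset. Mrps22 (chr9:98588730-98601660, minus strand), found only in mitochondrial ribosomes, was at 1.73, 1.93 and 2.10 FPKM in KO libraries, against 2.70, 2.32 and 2.23 FPKM in WT libraries. Its log2 fold change was -0.39 ± 0.12 and -0.38 with the offset (edgeR adjusted p 0.0207 and 0.0245). Without KO library 1 its adjusted p was 0.0749, and without WT library 1 it was 0.0888. Mrps16, which has a bacterial counterpart, was at 3.03, 2.60 and 2.50 FPKM in KO libraries and at 3.33, 3.24 and 3.51 FPKM in WT libraries, and its log2 fold change was -0.36 (edgeR adjusted p 0.0246). Its call was lost without KO library 2 or 3 or WT library 1 or 3 (adjusted p 0.0513 to 0.0802).

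The 3 proteins related to bacterial S18 were given separately, since a ribosome holds them at different places. Mrps18a, which structures place in the large subunit despite its name, was at 4.98, 4.72 and 5.26 FPKM in KO libraries, against 6.65, 6.33 and 5.57 FPKM in WT libraries. It fell without and with the offset, by 0.36 and 0.26 on the log2 scale (edgeR adjusted p 0.00442 and 0.0366). Mrps18b fell by 0.29 in the first fit only (edgeR adjusted p 0.0204), and that call was lost without KO library 2 or 3 or WT library 1 or 2 (adjusted p 0.06 to 0.0648). Mrps18c averaged 11.1 ± 0.855 FPKM in KO and 11.7 ± 1.03 FPKM in WT, with overlapping groups. The differences between the 3 genes were not tested.

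Mrps21, the most abundant member, was at 27.6, 25.3 and 28.3 FPKM in KO libraries, against 34.5, 34.1 and 28.9 FPKM in WT libraries. The groups were just apart, and the log2 fold change was -0.32 (edgeR adjusted p 0.0107) but 0.19 with the offset (adjusted p 0.0756), and its 488 bp transcript was the shortest of the 78. Mrps15 fell by 0.20 (edgeR adjusted p 0.0204), a call lost without KO library 1 or WT library 1 or 3 (adjusted p 0.0548 to 0.0701), and with the offset its log2 fold change was 0.10. Mrps23 averaged 14.8 ± 1.14 FPKM in KO and 16.05 ± 0.796 FPKM in WT, and the groups overlapped in FPKM but were apart in CPM.

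Mrps12, which shapes the decoding centre, was at 6.48, 5.82 and 8.75 FPKM in KO libraries, against 9.09, 7.61 and 8.07 FPKM in WT libraries. It did not pass the test (adjusted p 0.154, edgeR), but without KO library 3 it did (adjusted p 0.024, log2 fold change -0.47). Mrps30, placed in the large subunit by structures, had the highest log2 fold change at 0.12 ± 0.09, with 2.04, 1.98 and 2.22 FPKM in KO libraries and 1.92, 1.83 and 1.76 FPKM in WT libraries. The groups were apart in FPKM but overlapped in CPM, and the change did not pass the test (edgeR adjusted p 0.275). The low members Mrps10 and Mrps35 were at 1.47 ± 0.166 and 1.07 ± 0.0940 FPKM in KO, and at 1.57 ± 0.0552 and 1.11 ± 0.0951 FPKM in WT.

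Mrps36, known as a component of the 2-oxoglutarate dehydrogenase complex and not as a ribosomal protein in present structures, was at 6.30, 5.60 and 6.82 FPKM in KO libraries, against 7.84, 8.30 and 7.82 FPKM in WT libraries. The groups did not overlap. It fell by 0.41 on the log2 scale (edgeR adjusted p 0.0103), and with the offset its log2 fold change was -0.06 (adjusted p 0.709).

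The median log2 fold changes of the subunits differed by less than the spread between libraries. Of the 49 large-subunit genes 19 fell (38.8%), and their median log2 fold change was -0.21. Of the 29 small-subunit genes 12 fell (41.4%), and their median was -0.18. Over all tested genes 19.4% fell. The medians differed by -0.03, against an SD between libraries of 0.036. Without WT library 1 the small-subunit count was 6. With the offset 13 large-subunit (26.5%) and 7 small-subunit genes (24.1%) fell, against 15.9% of all tested genes, and both medians were -0.11. These subunits are by name. With Mrps30 and Mrps18a counted in the large subunit and Mrps36 left out, 20 of 51 large-subunit (39.2%) and 10 of 26 small-subunit genes (38.5%) fell. With the offset 14 of the 51 (27.45%) and 6 of the 26 (23.1%) fell. No test was made over the members of a subunit, which are not replicates.

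The summed levels, which carry no length and GC offset, were lower in KO in every library. Summed over the 49 genes, TMM-scaled CPM was 814 ± 16.75 in KO and 957 ± 16.5 in WT. Over the 29 genes it was 445 ± 4.97 in KO and 508 ± 13.8 in WT (SD, n = 3 each). Every KO library was below every WT library in both sums. The ratio of the large to the small sum was 1.86, 1.81 and 1.83 in KO libraries and 1.87, 1.87 and 1.92 in WT libraries. The lowest WT ratio was just above the highest KO ratio. In FPKM that ratio was 1.88 ± 0.0326 in KO and 1.92 ± 0.0375 in WT, and the groups overlapped. All 78 genes together summed to 536 ± 8.29 FPKM in KO and 613 ± 16.35 FPKM in WT. With the offset, the 3 most abundant members of each subunit had log2 fold changes of 0.02 to 0.19, while the median of all 78 was -0.11. Across the 78, log2 fold change and the logarithm of mean FPKM had a Pearson correlation of -0.156, and of 0.531 with the offset. Sums with the offset were not made.

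**Figure D4:**
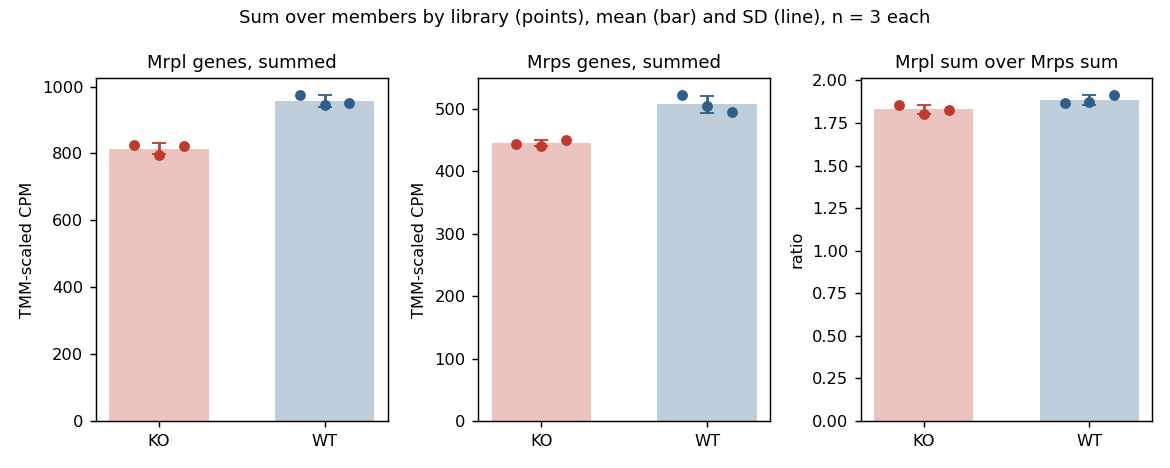
Summed TMM-scaled CPM of the Mrpl genes (left) and Mrps genes (middle), and their ratio (right), in each of 3 KO and 3 WT libraries (points), with the mean (bar) and SD (line). Both sums are lower in KO, and the ratio averages 1.83 in KO and 1.885 in WT. No length and GC offset is applied.

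Of the 48 members with a bacterial counterpart 21 fell (43.75%), and their median log2 fold change was -0.20. Of the 30 without one 10 fell (33.3%), and their median was -0.18. With the offset 14 of the 48 fell (29.2%), with a median of -0.14, and 6 of the 30 (20%), with a median of -0.07. Over all tested genes 19.4% fell without the offset and 15.9% with it. The difference was not tested, and the assignment was made after values had been seen.

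The reads of some members could not be assigned with certainty. Of the 78, 35 overlap another listed gene, 29 on the opposite strand and 11 on the same strand, and whether the counting used the strand is not given in the sources used here. Mrps6, the 1 member that rose with the offset (log2 fold change 0.37, edgeR adjusted p 0.00653), overlaps Slc5a3 on the same strand by 29152 bp. Slc5a3, a myo-inositol transporter, had a log2 fold change of 0.97 (edgeR adjusted p 1.394e-06). Mrpl53 overlaps Gm42688 by 900 bp on the same strand. It was also the most scattered member, at 1.42, 1.84 and 3.34 FPKM in KO libraries and 3.58, 0.806 and 4.26 FPKM in WT libraries. For 5 members the table lists matched pseudogenes whose own summed count equalled over 10% of the member's count, at 29.1% for Mrpl48, 28.6% for Mrps36, 26.1% for Mrps34, 20.7% for Mrps33 and 16.7% for Mrps18b. How the counting divided reads between such copies is not given in the sources used here, so the values of these genes are uncertain. The copies of Mrpl48 and Mrps33 were 98.1% and 99.7% identical to the member over their aligned length, whereas both of Mrps34 were only 71.3% and 70.8% identical. Of the copies of Mrps18b, Gm15760 had the higher mean count and was 85.3% identical over 77.4% of its length, and Gm13552 was 99.8% identical.

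Many members share a start region with a neighbour. A coding gene on the opposite strand began within 1000 bp for 33 of the 78 (42.3%), against 16.5% of 10438 tested coding genes. Of the 26 tested neighbours, which include the members Mrps11 and Mrpl46, 8 fell and 2 rose, and with the length and GC offset 6 fell and 1 rose. Over all tested genes 19.4% fell and 20.3% rose without the offset, and 15.9% fell and 14.9% rose with it. The 24 neighbours that are no members had a median log2 fold change of -0.10, and -0.09 with the offset. Mrpl51 and its neighbour Ncapd2, a condensin subunit whose start lies 100 bp away, both fell, with log2 fold changes of -0.49 and -0.39. Mrpl41 fell by 0.34 while Pnpla7, 935 bp away, rose by 0.23 (edgeR adjusted p 0.00178). With the offset Mrpl41 had no call (log2 fold change 0.07, edgeR adjusted p 0.672), while Pnpla7 rose by 0.21 (adjusted p 0.000943). Mrps11 and Mrpl46 form such a pair within the set, and neither passed the test, with log2 fold changes of -0.20 and -0.23. The 4 members on chromosome 5, which carries Pebp1, lie 12.4 to 85.7 Mb from it, and none of them passed the test in the first fit. With the length and GC offset Mrps17 fell (log2 fold change -0.19, edgeR adjusted p 0.0410), and with the table length Mrpl33 did (-0.26, adjusted p 0.0264).

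Genes that act with the mitochondrial ribosome did not all share its direction. Of 7 further genes under other names, for ribosomal proteins or for proteins that bind the ribosome, 4 fell and 1 rose. Chchd1, Gadd45gip1, Aurkaip1 and Dap3 fell, by 0.45, 0.36, 0.28 and 0.23 on the log2 scale. Oxa1l, the inner-membrane insertase that binds the ribosome, rose by 0.21 (edgeR adjusted p 0.0108). It averaged 16.2 ± 1.26 FPKM in KO and 13.4 ± 0.513 FPKM in WT, and the groups did not overlap. With the offset Oxa1l rose, and Dap3 and Ptcd3 were the 2 that fell.

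Assembly factors and translation factors showed few calls. Of 25 assembly and rRNA-modification genes 2 rose, Gtpbp10 (log2 fold change 0.46) and Rbfa (0.18), and Mtg1 fell (-0.34). Of 15 translation factors Guf1 rose (0.48) and Mtif3 fell (-0.32), while Mtfmt did not pass (-0.33, edgeR adjusted p 0.0565). Of 17 aminoacyl-tRNA synthetases and related enzymes Gatb, Wars2 and Lars2 rose (0.32, 0.38 and 0.41) and Aars2 fell (-0.35). With the offset 1 of the assembly genes rose (Rbfa), 2 translation factors fell (Mtif3 and Gfm1), and 2 synthetase genes rose (Gatb and Wars2) and 2 fell (Aars2 and Iars2). Without the offset the median log2 fold changes of these 3 lists were -0.12, -0.13 and -0.0049.

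Slirp, which with LRPPRC is known to stabilise mitochondrial messenger RNA, was at 2.44, 2.29 and 2.33 FPKM in KO libraries, against 4.12, 3.35 and 3.74 FPKM in WT libraries. The groups were far apart, with a log2 fold change of -0.72 (edgeR adjusted p 0.00036) and -0.73 with the offset. Of 16 transcription and mRNA factors Slirp, Rexo2 (-0.30) and Tbrg4 (-0.25) fell and 0 rose. With the offset 4 fell, among them Slirp and Rexo2.

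Of the 15 RNAs of the mitochondrial genome only the large ribosomal RNA mt-Rnr2 rose and mt-Co3 fell. The RNA mt-Rnr2 was at 261.5, 230.6 and 252.9 FPKM in KO libraries, against 204.5, 167.9 and 150.4 FPKM in WT libraries, with no overlap and a log2 fold change of 0.46 (edgeR adjusted p 0.00227). The libraries were made from poly(A) RNA. With the offset mt-Rnr2 and mt-Nd4l rose and mt-Nd3 fell. The mt-Nd4 messenger did not pass the test (log2 fold change 0.16, edgeR adjusted p 0.0677).

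Of 10 tested regulators of nuclear mitochondrial genes Sp1, Yy1, Gabpb2 and Gabpa rose and Myc fell. Sp1 rose by 0.38 and Yy1 by 0.31, while Myc was at 9.41, 9.92 and 8.93 FPKM in KO libraries and at 11.9, 11.7 and 10.95 FPKM in WT libraries (log2 fold change -0.34, edgeR adjusted p 0.00179). With the offset Sp1, Yy1 and Esrra rose and Myc fell, and Sp1 and Yy1 had log2 fold changes of 0.13 and 0.20.

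The import machinery, which carries the ribosomal proteins into mitochondria, had 10 of 24 tested genes lower and 1 higher. Tomm7, a small subunit of the outer-membrane translocase, was at 8.25, 4.91 and 6.90 FPKM in KO libraries and at 13.2, 9.93 and 11.4 FPKM in WT libraries, with no overlap (log2 fold change -0.83, edgeR adjusted p 0.00278). Timm8b, a chaperone of the space between the membranes, fell by 0.57 and its relative Timm13 by 0.37, but neither passed with the offset (edgeR adjusted p 0.572 and 0.197). Tomm70a, a receptor of the outer membrane, rose by 0.15. With the offset 7 import genes fell and 0 rose. Call shares of these lists stand beside 19.4% lower and 20.3% higher over all tested genes, and with the offset beside 15.9% lower and 14.9% higher.

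**Figure D5:**
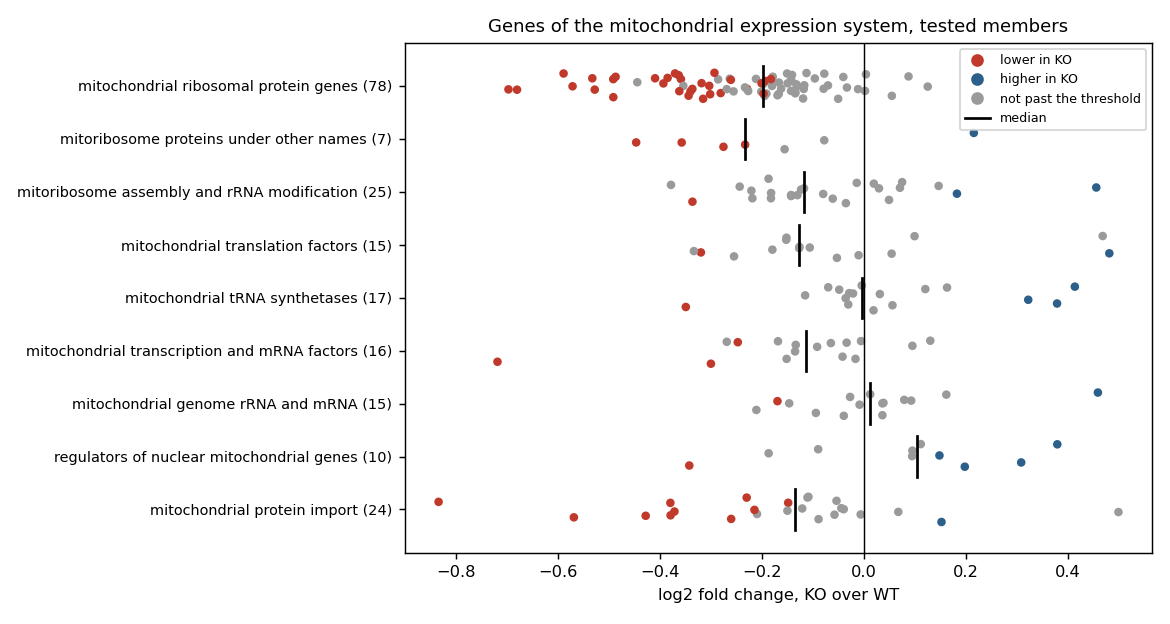
Log2 fold change (KO over WT, horizontal axis) of the tested genes of each list, with the number in brackets and the median as a black line. The ribosomal protein genes have a median of -0.20, the regulators have a median of 0.10 and the genes of the mitochondrial genome lie around 0.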

How the data were processed

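Per the labels' protocols, RNA was selected with oligo(dT) and libraries were built with dUTP marking of the second strand. StringTie 1.3.4d, HISAT2 2.0.4 and cutadapt 1.9 are named, with no order, in the submitters' processing notes. The genome build, and whether counting used the strand, are not given in the sources used here. The authors deposited an estimated count and an FPKM value for each gene and library. Among low values a count of 4 was found 5769 times, against 3204 for 3, 2041 for 5 and 5103 for 1, so some fragments appear to enter as several estimated counts, and counting error may be larger than the counts show. Gene IDs matched GENCODE M21 for 27382 of 27458 genes.

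KO was compared with WT on the estimated counts by edgeR 4.0.16 (R 4.3.3), quasi-likelihood, two-sided, scaled by TMM. The fit took the 11636 genes averaging 1 FPKM or more. P-values were adjusted by Benjamini-Hochberg over all of them, at 0.05. The approximate SE divides the size of the log2 fold change by the root of F. A second fit added an offset per library from a loess trend (span 0.3) on length and GC content of the longest transcript. Scripts were tested on simulated data. Pseudogenes were matched with minimap2 2.31 where 50% or more of the pseudogene was covered, and identity was taken from its base-level alignment. Alternatives were DESeq2 1.42.0, limma 3.58.1, other scalings and filters, a replicate block, counts divided by 4, and leaving out each library. An offset on the length implied by the table was added after seeing the data, as were the corrected fits with a library left out. The labels used here do not say whether the replicate numbers pair the libraries. Deviations from each group's mean correlated at 0.023, 0.187 and -0.0379 for same-numbered libraries, and at -0.172 to 0.164 for the others. These values cannot decide it.

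Members named are, per subunit, the 8 called members with non-overlapping groups and the largest change, the 3 highest and 2 lowest by mean FPKM, and 8 chosen for their role. Of each pathway list the 3 genes with the smallest p are named. Further genes (Mrps6, Mrpl53, Mrpl13, the markers Lyz2, Adgre1, Csf1r, Ccr2 and Col1a1, and those counted above in small groups) were named after their values were seen. The members and lists were chosen with earlier results of these data known.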

Additional observations from a re-analysis of the deposited data

How the results depend on the processing

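All alternatives left the number of members that rose at 0, except the length and GC offset, the same with replicate block, and the offset on the length implied by the table, which each gave 1. The number that fell was 31 and ran from 21 to 30 with 1 library left out. It was 18 without a filter on low values, 20 with the length and GC offset, 14 with that offset and replicate block, and 20 with the table length. The cause of the lower count without a filter was not tested. The members' median log2 fold change was -0.1299 and -0.1434 with limma at pseudocounts of 1 and 0.1, -0.2377 at a mean of at least 5 FPKM, and -0.1093, -0.1046 and -0.1233 with the 3 offsets in the order above. With limma (pseudocount 1), 2770 genes of all were higher and 1639 lower, against 2364 and 2253 by edgeR. Whether the replicate numbers pair the libraries is not known, and the replicate block gave 28 members lower.

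For the large subunit, 10 fell with the offset and block, and the medians were -0.1456 and -0.1628 with limma and -0.1102, -0.0986 and -0.1290 with the 3 offsets. For the small subunit, 5 fell without a filter, 7 with the length and GC offset, 4 with the block added and 5 with the table length, and 6 to 11 with 1 library left out. Its medians were -0.1073 and -0.1267 with limma, -0.2436 at 5 FPKM and -0.1083, -0.1106 and -0.1092 with the 3 offsets. The difference between the subunits' medians turned to 0.0137 at 5 FPKM and to 0.0119 with the offset and block, and it ran from -0.0452 to 0.0055 with 1 library left out, with 0.0055 without KO library 2. With the offset, 13 to 15 members fell when 1 library was left out. Of the 31 that fell, 13 were still called with the length and GC offset.

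With the 3 offsets in the same order, the log2 fold change turned to 0.0225, 0.0233 and 0.0662 for Mrpl10, 0.0575, 0.0557 and 0.0659 for Mrpl18, and 0.0282, 0.0231 and 0.0130 for Mrpl28. It turned to 0.0483, 0.0297 and 0.0368 for Mrps12, 0.0982, 0.0969 and 0.0102 for Mrps15, and 0.1529, 0.1547 and 0.1333 for Mrps18c. It turned to 0.1943, 0.1964 and 0.1349 for Mrps21, 0.0524, 0.0499 and 0.0703 for Mrps23, and -0.0244, -0.0243 and -0.0658 for Mrps30. For Mrpl48, which is near 0, it was -0.0772, -0.0754 and -0.1290, and -0.0245 with library totals alone. With 1 library left out it ran from -0.2173 to 0.0182 for Mrpl47 and from -0.0652 to 0.0476 for Mrpl48. The cause of these turns was not tested.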

Other observations

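Of the 5 pseudogenes that carry a mitochondrial ribosomal protein name, only Mrpl48-ps reached a mean of 1 FPKM. It was at 7.56, 8.53 and 5.88 FPKM in KO libraries and at 7.55, 7.41 and 5.41 FPKM in WT libraries, and the groups overlapped (log2 fold change 0.05, edgeR adjusted p 0.847). Its parent Mrpl48 averaged 1.93 FPKM in KO and 1.85 FPKM in WT.

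Chromosome 11 carries 11 of the 78 members (14.1%), against 8.22% of all tested genes, and 7 of those 11 fell. On the other chromosomes with 5 or more members, 5 of 8 fell on chromosome 17, 3 of 7 on chromosome 6, 1 of 6 on chromosome 7, 2 of 5 on chromosome 3, and 1 of 5 each on chromosomes 1, 13 and 19. These counts were made without the length and GC offset, and stand beside 39.7% of all members and 19.4% of all tested genes. With the offset only Mrpl12 and Mrpl58 fell on chromosome 11, and only Mrps18a on chromosome 17. On chromosome 6 Mrpl19, Mrpl35, Mrpl51 and Mrps25 fell with it. The differences between chromosomes were not tested.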
